A study of Rattus norvegicus with 54 samples.

Results

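Phase II conjugating enzymes attach a water-soluble group to drugs, hormones and reactive metabolites. The enzymes described are all probe sets whose single annotated gene symbol begins with Gsta, Gstk, Gstm, Gsto, Gstp, Gstt, Gstz, Mgst, Ugt1, Ugt2 or Sult. A probe set is a group of short probes that together measure 1 transcript on the array. The rule found 40 probe sets of 38 genes among 15866 probe sets. There were 3 Gsta, 1 Gstk, 6 Gstm, 1 Gsto, 1 Gstp, 3 Gstt, 1 Gstz, 3 Mgst, 7 Ugt2 and 14 Sult probe sets. Ugt2b and Sult2b1 had 2 probe sets each, called probe set 1 and probe set 2 here. Ugt1 had 0 members. Probe sets annotated with several symbols do not enter by the rule, and 4 of them carried a symbol of these families.

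The arrays came from male Zucker rats, a strain with the fa mutation of the leptin receptor, which causes obesity when both copies carry it. Epididymal adipose tissue, liver and gastrocnemius muscle were each measured in 6 groups of 3 arrays, 54 arrays in all. Lean rats carried the mutation on 1 chromosome (fa/+). Obese rats carried it on both (fa/fa) and were either left without a ligand, on normal chow, or given pioglitazone, rosiglitazone, troglitazone or AG035029. These are ligands of PPARgamma, the nuclear receptor that drives fat cell formation. The first 3 are thiazolidinediones, a class of insulin sensitisers, and AG035029 is known here by its code name alone. The labels used here give no dose, length of treatment or age, so the ligands cannot be set at matched exposure. Each array held RNA pooled from 2 rats, so the p-values rest on the spread between the 3 pools within a group. That spread was estimated over all groups of a fit, also those outside the comparison. The 4 ligand groups were all compared with the same 3 untreated obese arrays.

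Conjugation often follows oxidation of a compound and prepares it for export. Glutathione S-transferases (Gst, and the membrane-bound Mgst) join glutathione to electrophiles such as products of lipid peroxidation. UDP-glucuronosyltransferases (Ugt) transfer glucuronic acid from UDP-glucuronic acid, and sulfotransferases (Sult) transfer sulfate from the donor PAPS. The liver is the organ best known for all 3 reactions.

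Promoters of 6 members are shown because the results turn on these genes. Mgst1 and Gstz1 responded differently to the ligands in different tissues, and 4 sulfotransferases differed between obese and lean liver. The RefSeq table used (build GRCr8) holds 250 bases before its own start of each gene, and the runs are 5′ to 3′ on the gene's strand. The annotated gene in RefSeq begins inside this window for Gstz1 (by 30 bases), Sult1c2a (by 114) and Sult1c3 (by 43), and those bases are left out of the runs. Capitals mark matches on either strand to TGACNNNGC (core of the antioxidant response element), GCGTG (core of the xenobiotic response element), AGGTCA (the hexamer of nuclear receptor sites) or TATAAA (the core promoter motif named after its letters, added after the first values were seen).
Mgst1 (chr4:172760680-172760929, plus strand): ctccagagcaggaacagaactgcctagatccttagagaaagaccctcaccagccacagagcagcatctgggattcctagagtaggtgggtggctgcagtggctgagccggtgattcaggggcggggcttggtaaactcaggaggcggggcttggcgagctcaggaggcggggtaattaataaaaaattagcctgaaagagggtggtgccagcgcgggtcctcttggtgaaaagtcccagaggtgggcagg
Gstz1 (chr6:112525356-112525575, plus strand): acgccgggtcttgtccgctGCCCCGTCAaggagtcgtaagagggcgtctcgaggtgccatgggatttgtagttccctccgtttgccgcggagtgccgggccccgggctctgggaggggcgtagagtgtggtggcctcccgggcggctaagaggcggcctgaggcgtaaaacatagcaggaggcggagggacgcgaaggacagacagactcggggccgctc
Sult1c2a (chr9:7103317-7103452, minus strand): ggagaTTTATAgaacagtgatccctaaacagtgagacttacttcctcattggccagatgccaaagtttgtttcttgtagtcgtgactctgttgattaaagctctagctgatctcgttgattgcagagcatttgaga
Sult1c3 (chr9:7594300-7594506, minus strand): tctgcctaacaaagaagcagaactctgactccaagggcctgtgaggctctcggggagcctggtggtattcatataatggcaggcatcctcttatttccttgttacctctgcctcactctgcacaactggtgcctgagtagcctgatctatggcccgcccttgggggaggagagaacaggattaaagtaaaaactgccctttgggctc
Sult2a2 (chr1:85104533-85104782, minus strand): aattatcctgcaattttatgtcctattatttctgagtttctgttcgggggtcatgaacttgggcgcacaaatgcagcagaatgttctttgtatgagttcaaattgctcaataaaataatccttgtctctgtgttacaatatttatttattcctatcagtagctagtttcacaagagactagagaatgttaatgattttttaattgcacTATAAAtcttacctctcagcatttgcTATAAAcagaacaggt
Sult2a6 (chr1:84097809-84098058, minus strand): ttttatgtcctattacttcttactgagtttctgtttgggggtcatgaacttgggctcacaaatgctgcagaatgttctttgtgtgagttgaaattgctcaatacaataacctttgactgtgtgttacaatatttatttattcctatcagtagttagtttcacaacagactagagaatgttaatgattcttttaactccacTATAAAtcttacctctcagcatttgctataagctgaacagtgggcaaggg

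Gstz1 held 1 antioxidant response core, and the Mgst1 and Sult1c3 runs held none of the 4 motifs. Sult2a2 and Sult2a6 held TATAAA, and Sult1c2a held it on the opposite strand. Of the 38 genes, 32 had a promoter in the table, and matches over all promoters were counted in whole 250-base windows. Among these, TGACNNNGC was found in 4 (Gstm5, Gstm7, Gstp1 and Gstz1), against 10.1% of all 33469 promoters. GCGTG was found in 7 of the 32, against 25.9% of all, and TATAAA in 10, against 12.9%. AGGTCA was found in 2 (Gstm1 and Ugt2b15), against 14.1% of all. The direct repeat of that hexamer with 1 base between, the type bound by PPARs, was found in 0 of the 32 and in 0.0508% of all promoters. The direct repeat with 4 bases between was found in 0 of the 32 and in 0.00299% of all. Both repeats contain AGGTCA, and GCGTG can overlap TGACNNNGC. A match describes letters, and its absence says nothing about a factor.

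The Sult2a2 and Sult2a6 windows were 83.8% identical (217 bases over 259 aligned columns), and the other 14 pairs were 43.2 to 53.2% identical. Genes of the Sult2a, Ugt2b, Gsta and Gstm groups have close relatives, so a probe set can pick up part of a relative's transcript. None of the 40 member probe sets carries a name ending that marks shared probes (0 of 40).

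Signals are the deposited MAS5 values on a linear scale, on which every array was scaled to a trimmed mean of 500. Array medians ran from 191 to 248. Changes are differences of log2(signal + 20), which understate the change of low signals, and are called at a Benjamini-Hochberg adjusted p under 0.05 in limma over all tested probe sets of a tissue. Among members, 19 passed the filter in adipose tissue, against 33 for liver and 18 for muscle, and the others had mean signals under the filter. Summed hepatocyte markers (8 genes) were 217704 to 384159 in liver. Of the 54 arrays, 3 were named as standing apart. The adipose array of AG035029 replicate 1 had a summed signal of 5985.5 for 2 epididymis markers, against 49.0 to 217 on the other adipose arrays. The adipose array of rosiglitazone replicate 2 had the widest residual spread in that tissue (SD 0.265), by a narrow margin over troglitazone replicate 2 (0.256). The liver array of troglitazone replicate 3 had a summed muscle fibre signal of 27126, against 489.9 to 1479 on the other liver arrays. Arrays outside these 3 also had raised marker sums. Adipose lean replicates 2 and 3 had muscle fibre sums of 2516 and 2173, against 535.7 to 1108.3 on the other adipose arrays. Liver troglitazone replicate 2 had a red cell sum of 34158, against 6399 to 20546 on the other liver arrays.

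In lean rats, most phase II transcripts were highest in liver (plot of lean signals). The mean was highest in liver for 33 of the 40 probe sets, in adipose tissue for 5 and in muscle for 2. Over all 15866 probe sets, 34.7% were highest in liver. For 28 members every lean liver array lay above every lean array of both other tissues, against 13.7% of all probe sets. All 7 Ugt2, all 3 Gsta and 8 of 14 Sult probe sets were among the 28. The joint fit of 54 arrays tested 25 members. Its filter took the mean over all 54 arrays, so a high liver signal alone could bring a member in. Ugt2b probe set 2, Ugt2b1, Ugt2b35, Sult1b1, Sult1c3 and Sult1e1 were tested in liver but not in the adipose or muscle fits. Their calls of liver above the other tissues were thus favoured in advance by the filter. Liver was higher than adipose tissue for 20 and lower for 2 (limma), where 22% of all probe sets were higher and 33.8% lower (55.8% called). Liver was higher than muscle for 21 and lower for 2, where 25.8% of all were higher and 31.6% lower (57.3% called). Adipose tissue was higher than muscle for 15 and lower for 5, where 33.9% of all were higher and 25.3% lower (59.3% called).

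**Figure D1:**
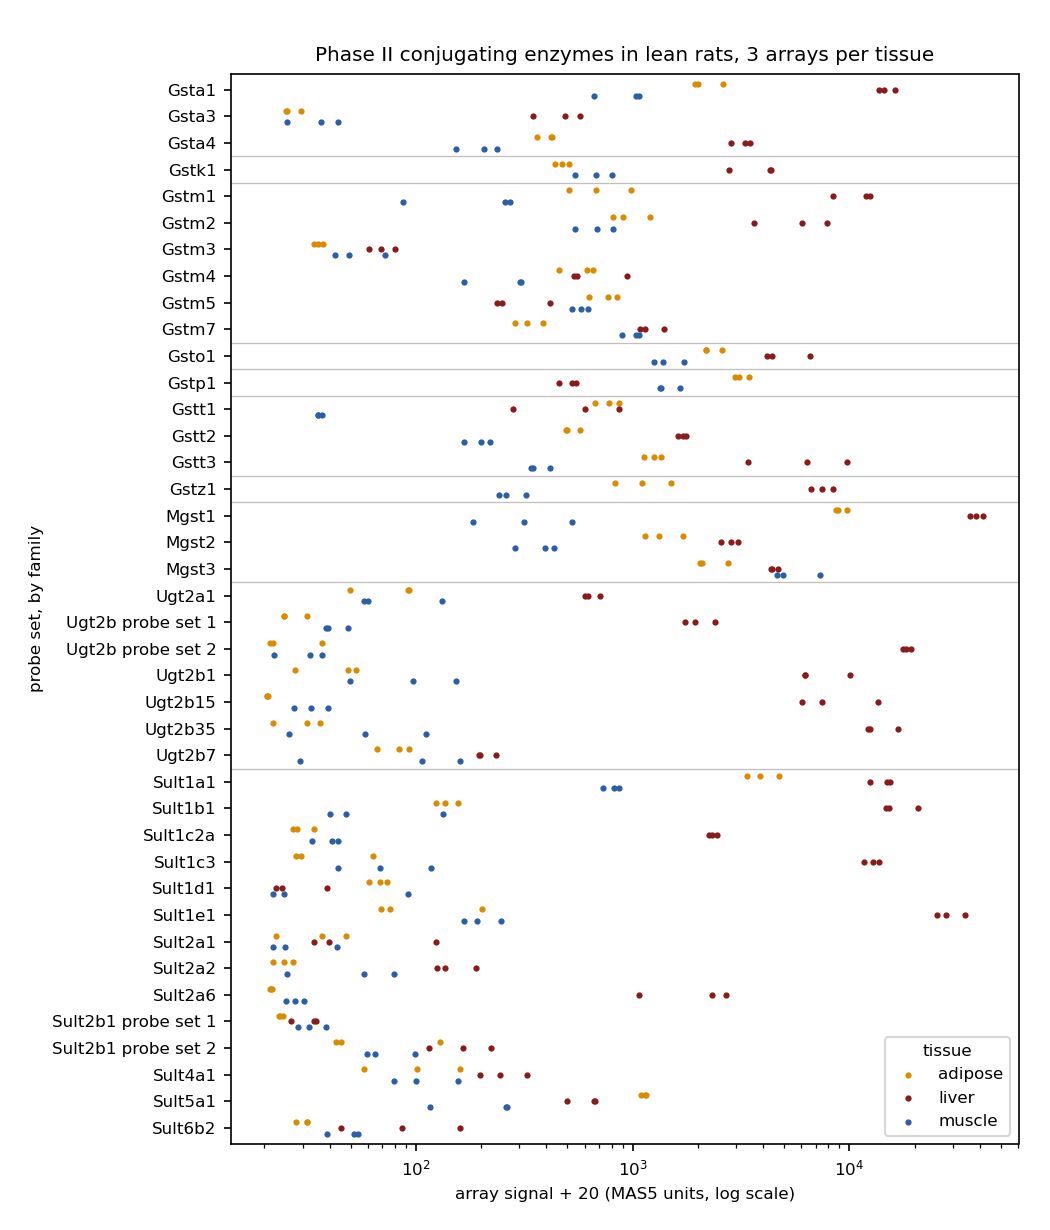
Signal of each of the 40 probe sets on the 3 lean arrays of each tissue, plotted as signal + 20 on a log axis, 1 row per probe set grouped by family. Liver points lie farthest right for most rows, while Gstp1 and Gstm5 are higher in adipose tissue than in liver and Mgst3 is highest in muscle.

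Among the soluble glutathione transferases, Gstp1 and Gstm5 departed from the liver pattern. Gsta1, an alpha-class transferase, had lean signals of 14362, 16306 and 13736 in liver, 1924, 2579 and 1978 in adipose tissue and 1046, 1012 and 641 in muscle. Gstm1, a mu-class transferase, had 11872, 8369 and 12371 in liver, 967, 654 and 491 in adipose tissue and 67.1, 252 and 237 in muscle. Both were highest in liver and lowest in muscle. Gstp1, the pi-class transferase, had 439.5, 507 and 528 in liver, 3436, 2962 and 3065.5 in adipose tissue and 1327, 1322 and 1632 in muscle. Its 3 tissues did not overlap, and liver was the lowest. The log2 difference of liver against adipose tissue was -2.64 (limma adjusted p = 8.17e-13), and against muscle -1.50. Gstm5, another mu-class member, had lean means of 281 ± 100.1 (SD, n = 3 arrays, as for every mean here) in liver, 729 ± 113 in adipose tissue and 554 ± 46.7 in muscle. It was also lower in liver than in adipose tissue, with a log2 difference of -1.35 (limma adjusted p = 0.000111). The remaining members of these classes had their highest lean mean in liver. It was 448 ± 111.5 for Gsta3, 3192 ± 326 for Gsta4, which clears 4-hydroxynonenal, 5828 ± 2119 for Gstm2, 50.0 ± 9.53 for Gstm3, 658 ± 228 for Gstm4 and 1188 ± 169.5 for Gstm7. The liver arrays of Gstm3 and Gstm4 overlapped those of another tissue.

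Most members of the smaller classes were highest in liver. Gstk1, found in mitochondria and peroxisomes, had lean signals of 4291, 2778 and 4317 in liver, 449.7, 418 and 491 in adipose tissue and 779, 521 and 660.3 in muscle. Gsto1, which also reduces dehydroascorbate, had 4159, 6593 and 4360.3 in liver, 2559, 2167 and 2166 in adipose tissue and 1704, 1365.5 and 1229 in muscle. Both had all liver arrays above the others. Gstt3, of the theta class that handles small halogenated molecules, had 6368, 3377 and 9719 in liver, 1237, 1106 and 1335 in adipose tissue and 319, 398 and 328 in muscle. Gstz1, which isomerises maleylacetoacetate in tyrosine breakdown, had 8362.5, 6651 and 7468 in liver, 813.5, 1084 and 1491 in adipose tissue and 240.5, 222 and 303 in muscle. For both, liver was highest and muscle lowest. Gstt2 had 1679 ± 69.9 in liver and 500.1 ± 42.4 in adipose tissue. Gstt1 was the theta-class member with its highest mean in adipose tissue, at 752 ± 98.8, against 563 ± 293 in liver and 15.7 ± 0.866 in muscle.

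Of the membrane-bound transferases, Mgst1 and Mgst2 were highest in liver and Mgst3 in muscle. Mgst1, which acts in the endoplasmic reticulum and the outer mitochondrial membrane as transferase and peroxidase, had lean signals of 36007, 41231 and 38228.5 in liver, 8829, 9748.5 and 8618 in adipose tissue and 294.5, 164 and 506 in muscle. The tissues were far apart, with a log2 difference of 4.86 between adipose tissue and muscle (limma adjusted p = 1.55e-13). Mgst2, which can make leukotriene C4, had lean means of 2804 ± 243 in liver, 1368 ± 287 in adipose tissue and 351 ± 76.0 in muscle. Mgst3 had 5602 ± 1469 in muscle, 4464 ± 165.5 in liver and 2270.3 ± 392.5 in adipose tissue. Liver and muscle did not pass as different for Mgst3 (log2 difference -0.30, limma adjusted p = 0.19).

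The glucuronosyltransferases of class 2B, which act on steroids and bile acids, were liver transcripts with low signals elsewhere. Ugt2b probe set 2 had lean signals of 19193, 17602 and 18290.2 in liver, 16.9, 1.90 and 1.30 in adipose tissue and 12.5, 16.9 and 2.20 in muscle. Probe set 1 of Ugt2b gave the same order of liver above both, with 2004 ± 336 in liver, 6.87 ± 3.93 in adipose tissue and 22.2 ± 5.73 in muscle. The lean liver means of Ugt2b1, Ugt2b15 and Ugt2b35 were 7479 ± 2216, 9044 ± 4007 and 13801 ± 2581.5. In adipose tissue the same genes had 23.1 ± 13.4, 0.600 ± 0.100 and 9.70 ± 7.14. Ugt2b7 had 189 ± 21.8 in liver and 78.6 ± 65.6 in muscle. Ugt2a1, a member best known from olfactory tissue, had 626 ± 54.4 in liver and 63.0 ± 41.9 in muscle.

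Among sulfotransferases, Sult1e1, which acts on estrogens, had lean signals of 25323, 34189 and 28022 in liver, 56.2, 181 and 48.8 in adipose tissue and 171, 147 and 226 in muscle. Sult1b1, which acts on thyroid hormones, had lean means of 16905 ± 3319 in liver, 118 ± 16.2 in adipose tissue and 53.8 ± 51.9 in muscle. Both had liver signals far above those of the other tissues. Sult1a1, the phenol sulfotransferase, reached further, with 14245 ± 1636 in liver, 3979 ± 691.5 in adipose tissue and 786 ± 70.5 in muscle. Sult5a1 had its highest mean in adipose tissue, at 1108.5 ± 32.8, against 589 ± 96.0 in liver and 193 ± 84.4 in muscle. Sult2b1, the cholesterol sulfotransferase, had 11.6 ± 4.32 in liver by probe set 1 and 147.5 ± 53.0 by probe set 2. Sult1d1, Sult2a1 and Sult6b2 had lean liver means of 8.57 ± 9.08, 45.5 ± 50.0 and 76.9 ± 57.9 on low signals. Sult4a1 had 236 ± 65.7 in liver and 86.3 ± 51.5 in adipose tissue.

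In liver, obese and lean rats differed in the level of 4 sulfotransferase probe sets. Of the 14 sulfotransferase members, Sult1d1, Sult2a1, Sult6b2 and both Sult2b1 probe sets were below the liver filter and not tested. Sult1c2a fell by 3.58 and Sult1c3 by 2.86 on the log2 scale in untreated obese against lean rats, while Sult2a2 rose by 3.91 and Sult2a6 by 1.93. These were the 4 members called among 33 tested (limma), beside 0.672% of all probe sets (0.378% higher and 0.294% lower). The glutathione transferases and glucuronosyltransferases had 0 calls. Before adjustment 13 of 33 members had a p under 0.05, beside 9.76% of all probe sets. The members' median change was 0.10, against -0.01 over all probe sets.

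Sult1c3, a 1C-class sulfotransferase, had lean liver signals of 11658, 13745 and 12853 and obese signals of 1154, 1569 and 2857. Every obese array lay below every lean array, and the change was -2.86 ± 0.37 (standard error; limma adjusted p = 0.000259). Sult1c2a, of the same class and on the same chromosome, had 2438.5, 2311 and 2241 in lean and 366, 236 and 56.3 in obese liver. Its groups did not overlap either, with a change of -3.58 ± 0.53 (limma adjusted p = 0.000756).

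Sult2a2, of the class that acts on hydroxysteroids and bile acids, had lean liver signals of 168.5, 106 and 116 and obese signals of 2086, 3582 and 1407. Every obese array lay above every lean array, and the change was 3.91 ± 0.37 (limma adjusted p = 1.12e-05). Sult2a6, of the same class, had 2305, 2678 and 1047 in lean and 8497, 8941 and 4858 in obese liver. Its groups were again separate, as were those of 13.7% of all probe sets, with a change of 1.93 ± 0.32 (limma adjusted p = 0.00274). In rats the 2A class is known for higher levels in female liver, and all rats here were male. Sult2a1, the other 2A member, had 103, 19.7 and 13.7 in lean and 81.0, 30.1 and 28.1 in obese liver and was below the filter, so it was not tested.

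**Figure D2:**
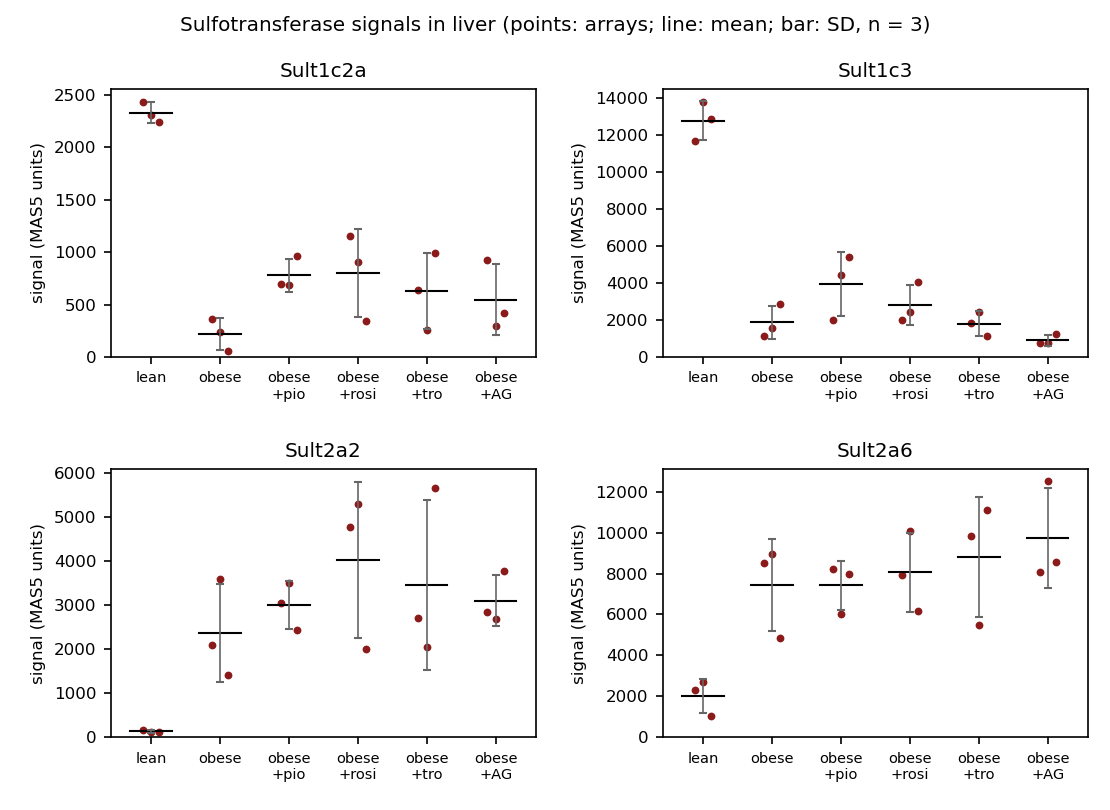
Signals of Sult1c2a, Sult1c3, Sult2a2 and Sult2a6 in liver on linear axes, for lean, untreated obese and 4 ligand-treated obese groups, with points for arrays, a line for the mean and a bar for the SD (n = 3). The lean arrays stand above all others for both 1C genes and below all others for both 2A genes.

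The 4 sulfotransferase calls held under every alternative processing tried and in each fit without 1 array. Over the fits without 1 array, the change of Sult1c2a ran from -4.07 to -2.90 and that of Sult2a2 from 3.55 to 4.22. Of the hepatocyte markers, 0 of 8 tested were called between obese and lean liver (median change 0.12), and of the macrophage markers 0 of 7 (median -0.26). In bulk tissue, fewer cells of a type and less RNA per cell cannot be told apart.

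The remaining tested members did not pass between obese and lean liver. Gsta3, an alpha-class transferase, had 328, 467 and 549 in lean and 939.9, 853 and 760 in obese liver, a change of 0.92 ± 0.30 (limma adjusted p = 0.215). Mgst2 had a change of 0.49 ± 0.15 (adjusted p = 0.177) and Gstk1 of 0.48 ± 0.18 (adjusted p = 0.319). These names, and those in the rest of the paragraph, were picked after their values were seen. Ugt2b15, Ugt2b1 and Ugt2b35 had changes of -0.58 ± 0.22, -0.58 ± 0.27 and -0.39 ± 0.16 (limma adjusted p = 0.321, 0.505 and 0.394). The probe sets of Ugt2b differed in sign, with 0.55 ± 0.21 for probe set 1 and -0.13 ± 0.22 for probe set 2, and neither passed. Mgst1 had a change of 0.10 with a 95% interval of -0.21 to 0.42, and Sult1e1 of -0.13 with an interval of -0.62 to 0.36.

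The ligands called 0 of 33 liver members in the mean of the 4 ligand groups against untreated obese rats (limma), beside 0.494% of all probe sets. At an unadjusted p under 0.05 there were 4 members, beside 10.6% of all. Single ligands also called 0 members each. Pioglitazone called 0.021% of all probe sets, with 3 members at an unadjusted p under 0.05 (beside 6.95% of all). Rosiglitazone called 0.063%, with 5 such members (beside 9.38%). Troglitazone called 0.662%, with 5 such members (beside 9.96%), and AG035029 0.2%, with 7 (beside 9.43%). The members' median change was -0.07 in the ligand mean, against -0.01 over all.

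On the ligand arrays the 4 sulfotransferases lay on the obese side of the lean arrays. Sult1c3 had 722 to 5384, with a median of 1984, on the 12 ligand arrays, all below the lean arrays. Its change against untreated obese rats was 0.17, with a 95% interval of -0.43 to 0.77. Sult1c2a had 261 to 1158, with a median of 689, also below every lean array. Its estimated change of 1.71 ± 0.42, toward the lean level, did not pass (limma adjusted p = 0.0788), with an interval of 0.83 to 2.58. Sult2a2 had 1998 to 5651, with a median of 2949, and Sult2a6 5484 to 12528, with a median of 8163, all above their lean arrays. Their changes against untreated obese rats had intervals of -0.07 to 1.15 and -0.32 to 0.73.

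Gstp1, low in liver, had 689, 698 and 830.2 in untreated obese liver and 263 to 649, with a median of 394, on the ligand arrays. These did not overlap, as for 1.48% of all probe sets, but the change of -0.77 ± 0.24 did not pass (limma adjusted p = 0.189). Gstt2 had a change of -0.50 ± 0.15 (adjusted p = 0.147). Mgst1 had a change of -0.23, with an interval of -0.48 to 0.02.

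In adipose tissue, obese and lean rats had 0 of 19 tested members called (limma; 3 at an unadjusted p under 0.05), beside 6.02% of all probe sets (20.7% unadjusted). Gstp1 had 3436, 2962 and 3065.5 in lean and 2775, 2385 and 1547 in obese tissue, a change of -0.53 ± 0.16 (limma adjusted p = 0.0598). Gstt2 had 478, 473.5 and 549 in lean and 348, 309 and 282 in obese tissue, a change of -0.64 ± 0.20 (adjusted p = 0.0598). The obese arrays of both genes lay below the lean arrays, as groups did not overlap for 27.9% of all probe sets. Gstz1 had a change of -0.65 ± 0.25 (limma adjusted p = 0.132). The count was 0 in this fit and up to 2 under other processing. Without the adipose arrays that stood apart, an alternative chosen after seeing the data, Gstt2 passed (adjusted p = 0.0424), as did 7.65% of all probe sets.

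The ligands raised Mgst2, Mgst3 and Gstz1 in adipose tissue, and the call of Mgst1 depended on the processing. In the mean of the 4 ligand groups against untreated obese rats, Mgst2 rose by 0.83, Gstz1 by 0.98, Mgst3 by 0.44 and Mgst1 by 0.32 on the log2 scale. Gstt3 fell by 0.80 and Gstk1 by 0.37. That was 6 of 19 members called (limma), beside 20.6% of all probe sets, a high background. Over all probe sets 9.01% rose and 11.6% fell. The members' median change was -0.13, against -0.05 over all.

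Mgst2 had adipose signals of 1296, 1684 and 1124 in lean and 1636.5, 1631 and 1655.5 in untreated obese rats. With ligands it had 2958, 3102 and 2541 (pioglitazone), 3202, 2245 and 2554 (rosiglitazone), 3021, 4291 and 3469 (troglitazone) and 2879.6, 2650.2 and 2660.2 (AG035029). Every ligand array lay above every lean and obese array, and the change was 0.83 ± 0.12 (limma adjusted p = 0.000118). Mgst3 had 1846, 1827 and 1938 in untreated obese rats and 2113 to 2932, with a median of 2547, on the ligand arrays. These too were separate, as were those of 11.6% of all probe sets, with a change of 0.44 ± 0.10 (limma adjusted p = 0.00491). Lean rats had 2723, 2023 and 2065, which overlap the ligand arrays.

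Mgst1 had 8829, 9748.5 and 8618 in lean and 9963, 11601 and 11175 in obese adipose tissue, and 10287 to 15941, with a median of 13691, on the ligand arrays. The ligand and obese arrays overlapped, and the change was 0.32 ± 0.10 (limma adjusted p = 0.0319). It was 0.13 and lost its call with quantile normalization (adjusted p = 0.223), and also with no filter on low signals (adjusted p = 0.0811). Gstz1 had 460.3, 779.8 and 919.7 in obese rats and 813.5, 1084 and 1491 in lean rats. On ligand arrays it had 843 to 2060.1, with a median of 1476, and changed by 0.98 ± 0.20 (limma adjusted p = 0.00146). The median of the ligand arrays lay within the lean range.

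Gstt3 and Gstk1 went down. Gstt3 had 1237, 1106 and 1335 in lean and 2006, 1541 and 1236 in obese adipose tissue, and 515.5 to 1398, with a median of 908, on the ligand arrays, a change of -0.80 ± 0.22 (limma adjusted p = 0.0144). Gstk1 had 449.7, 418 and 491 in lean, 410.1, 349 and 458 in obese and 214 to 437, with a median of 302.5, on ligand arrays, a change of -0.37 ± 0.13 (limma adjusted p = 0.0453). The ligand arrays of both overlapped the obese arrays. Gstk1 lost its call in 12 of 18 fits without 1 array and under 5 of 12 other alternatives, Mgst1 without any 1 of the 3 obese arrays (adjusted p up to 0.188), and Gstt3 without obese replicate 1 (adjusted p = 0.127) or 2 (adjusted p = 0.0509).

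**Figure D3:**
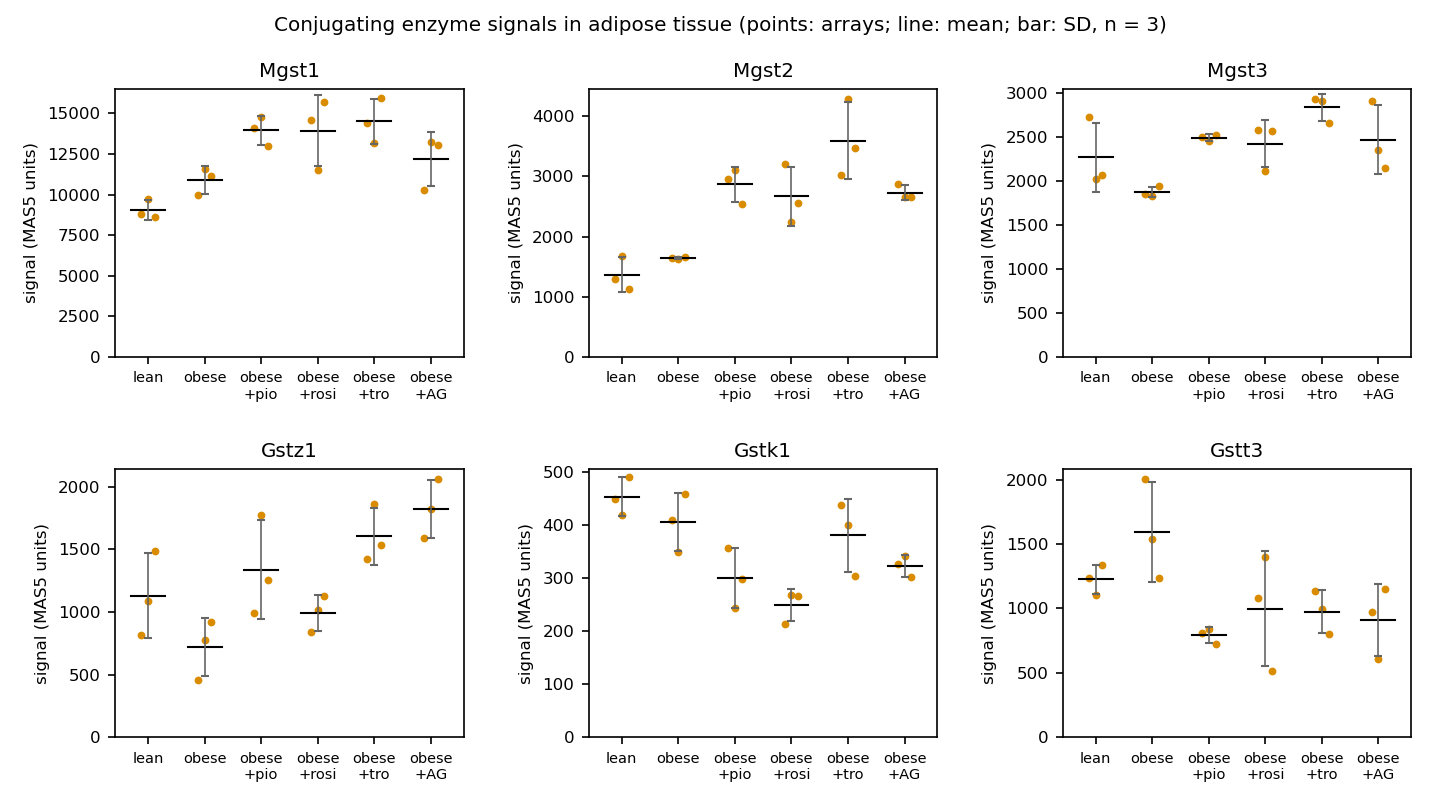
Signals of Mgst1, Mgst2, Mgst3, Gstz1, Gstk1 and Gstt3 in adipose tissue on linear axes, for lean, untreated obese and 4 ligand-treated obese groups, with points for arrays, a line for the mean and a bar for the SD (n = 3). All 12 ligand arrays of Mgst2 and Mgst3 lie above the 3 untreated obese arrays, and those of the other 4 members overlap them.

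The 2 adipose arrays that stood apart bear on further mu-class and alpha-class members. Gstm5 had a change of -0.77 ± 0.29 (limma adjusted p = 0.0716), Gsta4 of -0.46 ± 0.37, Gstm7 of -1.11 ± 0.61 and Sult5a1 of -0.45 ± 0.19 in the ligand mean, and none passed. Without these 2 arrays 10 members were called, beside 24.6% of all probe sets, and these 4 were among them. Their changes were then -0.98 for Gstm5 (limma adjusted p = 0.00178), -0.77 for Gsta4 (adjusted p = 0.00211), -1.56 for Gstm7 (adjusted p = 0.00729) and -0.58 for Sult5a1 (adjusted p = 0.00486). Only ligand arrays were left out here. The untreated obese arrays also spread widely, at 554.7 to 1410.3 for Gstm5 and 189.5 to 1693.1 for Gstm7. Summed kidney markers (3 genes) were 247.1 on the rosiglitazone array left out. They were 117.6 and 154.5 on obese replicates 1 and 2, which were kept, and 20.9 to 58.4 on the other adipose arrays. The part of this spread in the changes was not tested. The AG035029 array with epididymis markers had the highest adipose signals of Gsta1 (4175) and Gstm1 (3662.5). Within the AG035029 adipose group, Sult1c2a ran from 10.5 to 3624.6 and Gsta3 from 5.8 to 743.6, and both were below the filter in this tissue. The part of the epididymis in these signals was not tested.

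Each ligand was also set against untreated obese rats on its own. Pioglitazone called 5 of 19 members, beside 14.5% of all probe sets. It raised Mgst2 by 0.79, Gstz1 by 0.89 and Mgst3 by 0.41, and lowered Gstt3 (change -0.97) and Sult1a1 (change -0.68; limma adjusted p = 0.0266). Rosiglitazone called 2, beside 5.56%, with Mgst2 at 0.68 and Gstk1 at -0.66. Troglitazone called 5, beside 16.9%, and all rose: Mgst2 by 1.11, Gstz1 by 1.18, Mgst3 by 0.59, Gsto1 by 0.43 and Mgst1 by 0.41. AG035029 called 2, beside 15.1%, with Gstz1 at 1.37 and Mgst2 at 0.73. Mgst2 was thus called with each ligand (limma adjusted p = 0.00225, 0.0143, 9.48e-05 and 0.00408 in the same order). Without the 2 arrays that stood apart the counts were 8, 7, 9 and 7, beside 17.2%, 8.94%, 19.3% and 15.3% of all probe sets in the same order.

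Several of these single-ligand calls in adipose tissue were close to the threshold (all p-values in this paragraph are limma adjusted). With pioglitazone, Mgst3 lost its call without any 1 of the 3 obese or 3 pioglitazone arrays (adjusted p up to 0.105), with no filter and with no variance trend. Gstt3 lost it without obese replicate 1 or 2 or any 1 pioglitazone array (adjusted p up to 0.127) and with no filter. Sult1a1 lost it without obese replicate 1 or 2, without pioglitazone replicate 1 (change -0.49, adjusted p = 0.145) and with no filter. Gstz1 lost it without obese replicate 1 (adjusted p = 0.129) or pioglitazone replicate 2 (adjusted p = 0.111). With rosiglitazone, Mgst2 lost its call without rosiglitazone replicate 1 (adjusted p = 0.0792). Gstk1 lost it without that array, without obese replicate 1 or 3 (adjusted p up to 0.0995) and with only the compared arrays. With troglitazone, Gsto1 lost its call in 13 of 18 fits without 1 array and under 4 other alternatives, with a change of 0.30 under quantile normalization (adjusted p = 0.177). Mgst1 lost it without obese replicate 1 or 3 or troglitazone replicate 1 or 3 (adjusted p up to 0.129), with no filter, with no variance trend and under quantile normalization, where its change was 0.12 (adjusted p = 0.426). The calls of Mgst2 with pioglitazone, troglitazone and AG035029, and those of Gstz1 with troglitazone and AG035029 and of Mgst3 with troglitazone, were kept in every fit run.

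Markers of other cells moved in the same adipose comparison. The summed signal of 8 macrophage markers was 12868 to 16143 in lean, 28917 to 30958 in obese and 11974 to 26489 on ligand arrays, with 7 of 8 lower in the ligand mean (median -0.79). Of fibroblast markers 3 of 6 were lower, and of lymphocyte markers 3 of 3 tested, where 11.6% of all probe sets were lower. Summed fibroblast markers (6 genes) overlapped, with 27880 to 31267 in obese and 24226 to 33465 on ligand arrays. Summed lymphocyte markers (4 genes) were 8947 to 9514 in obese and 3814 to 7643 on ligand arrays. Summed adipocyte markers (5 genes) were 31506 to 38871 in obese and 33863 to 46827 on ligand arrays. Of 8 hepatocyte markers 3 were tested and 1 rose, Alb, with 188 to 350.1 in obese and 2559.7 to 9189.6 on ligand arrays, while Fgb and Apoa1 stayed near 0 (2.80 to 6.20 and 3.90 to 34.2). The part of these shifts in the members' changes was not tested.

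In muscle, Mgst1 rose strongly with the ligands. It had 294.5, 164 and 506 in lean and 395, 366 and 389 in untreated obese muscle. It had 5322, 1677 and 3892 with pioglitazone, 1899.8, 1100.1 and 2157 with rosiglitazone, 9555, 9652.5 and 1714 with troglitazone and 639, 3780.3 and 1271 with AG035029. Every ligand array lay above every lean and obese array, with a wide spread among them. The ligand and untreated obese arrays were separate for 0.704% of all probe sets. The change in the ligand mean was 2.68 ± 0.48, with a 95% interval of 1.67 to 3.68 (limma adjusted p = 0.00978). Mgst1 was the 1 member called of 18 tested, beside 0.242% of all probe sets. The call was lost without any 1 of the 3 obese arrays (adjusted p up to 0.0804, with the change at 2.70 without obese replicate 1), and with no variance trend (adjusted p = 0.0585).

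Markers of fat cells rose on the same muscle arrays. The summed signal of 5 adipocyte markers (Fabp4, Plin1, Lipe, Lep and Cfd) was 3908, 3437 and 3576 in lean and 3334, 5971 and 3634 in obese muscle. It was 23288, 13786 and 12519 with pioglitazone, 15747.5, 8527.5 and 11493 with rosiglitazone, 32547, 27219 and 15552 with troglitazone and 10416, 20679 and 10686 with AG035029. All ligand arrays lay above all others (scatter of Mgst1 against the marker sum). Of the 3 markers tested, Fabp4, the fatty acid binding protein of fat cells, was called, with a change of 2.03 ± 0.26 (limma adjusted p = 0.000296). Plin1 and Cfd did not pass (0.47 ± 0.33 and 0.97 ± 0.44), and Lipe and Lep were below the filter. The part of fat cells in the Mgst1 signal of muscle was not tested.

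**Figure D4:**
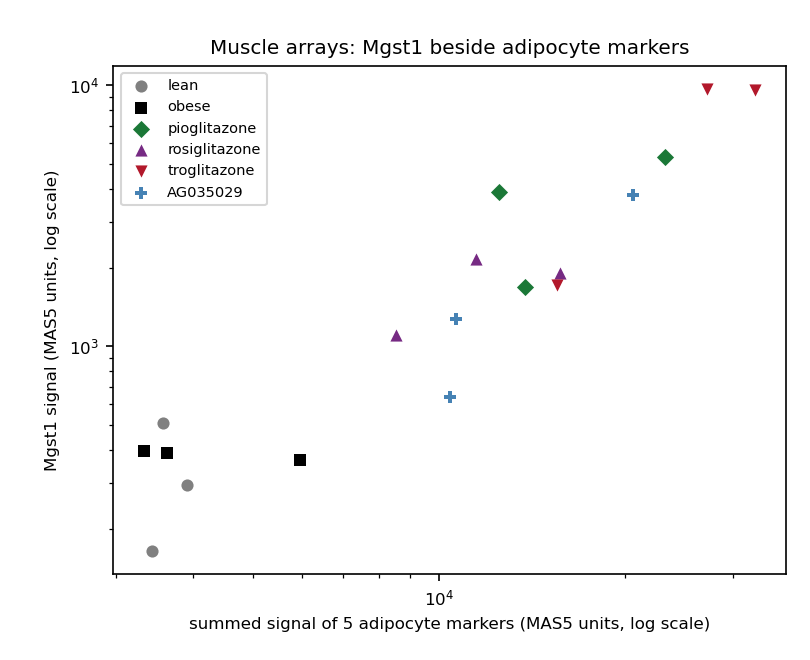
Mgst1 signal of each of the 18 muscle arrays against the summed signal of 5 adipocyte markers on the same array, both on log axes, with 1 colour per group. The 12 ligand arrays lie to the upper right of the 6 lean and untreated obese arrays on both axes.

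No other member passed in the ligand mean in muscle. Mgst2 had 329.9, 391 and 201 in obese muscle and 396 to 809, with a median of 594, on ligand arrays. These did not overlap, yet the change of 0.94 ± 0.20 just missed the threshold (limma adjusted p = 0.0591). Gstz1 had a change of 1.03 ± 0.28 and Sult1a1 of 0.55 ± 0.16, and neither passed (limma adjusted p = 0.237 and 0.261). Pioglitazone called 1 member, beside 0.231% of all probe sets, Mgst1 at 3.03 (limma adjusted p = 0.035). That call was lost with the replicate number as a block (adjusted p = 0.0716) and in 9 of 18 fits without 1 array. Troglitazone called 2, beside 0.704%, Mgst1 at 3.75 (limma adjusted p = 0.0031) and Mgst2 at 1.24 (adjusted p = 0.0231). The call of Mgst2 was lost with only the compared arrays (adjusted p = 0.136), with no variance trend, and without obese replicate 1 or 3 or troglitazone replicate 1 or 2 (adjusted p up to 0.137). Rosiglitazone and AG035029 called 0 each (limma), beside 0.0315% and 0.116%. At an unadjusted p under 0.05 each had 5, beside 6.73% and 6.72% of all, with Mgst1 at 2.05 and 1.88.

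Obese and lean muscle had 0 of 18 members called (limma; 2 at an unadjusted p under 0.05), beside 0.021% of all probe sets (4.87% unadjusted). Gstm5 had 556.5, 599.8 and 506.5 in lean and 892, 889 and 812 in obese muscle, a change of 0.62 ± 0.16 (limma adjusted p = 0.356). Sult1a1 had 802, 848 and 709 in lean and 1281, 1506 and 1331 in obese muscle, a change of 0.79 ± 0.20 (limma adjusted p = 0.356). In both genes all obese arrays were above the lean arrays, as groups did not overlap for 10.7% of all probe sets.

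The response to the ligands was then compared between tissues in the joint fit, as the difference of the ligand mean effect. Of 25 members tested, 4 differed between tissues by the F-test (limma), beside 6.03% of all probe sets: Mgst1, Mgst2, Gstz1 and Gstt3 (plot of changes by tissue). Mgst1 had a higher change in muscle than in liver, where its mean did not rise, with a liver minus muscle difference of -2.91 (limma adjusted p = 0.000136). It also rose more in muscle than in adipose tissue, by -2.36 for adipose minus muscle (adjusted p = 0.00148). Adipose tissue and liver did not pass as different for Mgst1 (adjusted p = 0.606). Mgst2 differed between adipose tissue and liver by 1.06 (limma adjusted p = 0.0014) and between liver and muscle by -1.17 (adjusted p = 0.000974).

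Gstz1 and Gstt3 differed between adipose tissue and liver. The adipose minus liver difference was 1.15 for Gstz1 (limma adjusted p = 0.0267) and -1.15 for Gstt3 (adjusted p = 0.0181). The F-test of Gstz1 was lost with array weights (limma adjusted p = 0.0845) and without liver obese replicate 3 (adjusted p = 0.128). That of Gstt3 was lost in 13 of 54 fits without 1 array and under 3 other alternatives. Next in the F-test came Gstp1 (limma adjusted p = 0.0522) and Mgst3 (adjusted p = 0.0564), which did not pass. Pairs of tissues called 5 members for adipose tissue against liver, beside 5.57% of all probe sets, with Gstp1 at 0.88 and Mgst3 at 0.75 as the remaining 2. Adipose tissue against muscle called 1, beside 2.66%, and liver against muscle 2, beside 0.966%.

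**Figure D5:**
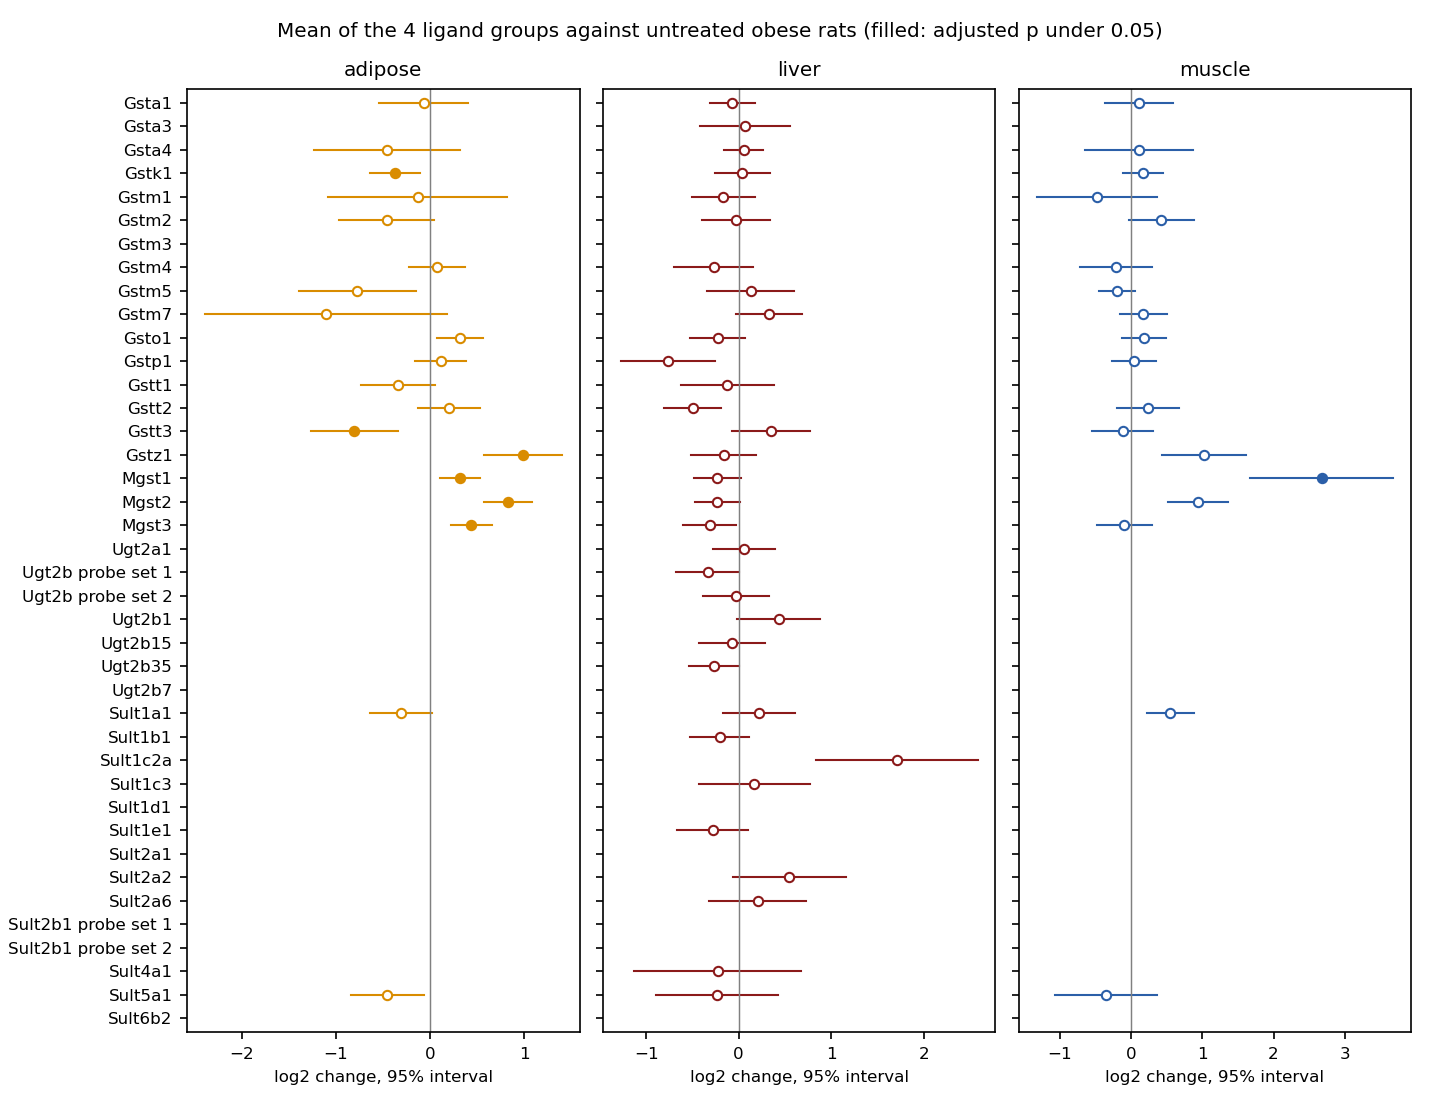
Change of each tested member in the mean of the 4 ligand groups against untreated obese rats, on the log2(signal + 20) scale, with its 95% interval in 3 panels, 1 per tissue (each panel has its own horizontal axis). Filled points mark an adjusted p under 0.05, which 6 members reach in adipose tissue, 1 in muscle and 0 in liver.

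The 4 ligands were set against each other in 6 pairs within each tissue, with the reserve that doses and times are not given in the labels. By the F-test 0 members differed among the ligands in any tissue (limma), where 0.0315% of all probe sets were called for adipose tissue, 0.0105% for liver and 0% for muscle. At an unadjusted p under 0.05 there were 3 of 19 for adipose tissue, 3 of 33 for liver and 4 of 18 for muscle, beside 9.22%, 6.31% and 9.68% of all probe sets. None of the 6 pairs called a member in any tissue (limma, adjusted over all probe sets in each pair), beside 0% to 0.042% of all probe sets. A p above the threshold does not show that the ligands act alike, so some of the wider differences are given with their intervals, as descriptions picked after the values were seen. In liver, Sult1c3 had 1995, 4432 and 5384 with pioglitazone, 1973, 2413.5 and 4045 with rosiglitazone, 1848, 2444 and 1104 with troglitazone and 722, 731 and 1221 with AG035029. Pioglitazone minus AG035029 was 2.04, with an interval of 1.28 to 2.81 (limma adjusted p = 0.166), and these arrays did not overlap, as for 11.1% of all probe sets.

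Among thiazolidinediones, Mgst1 in muscle had a rosiglitazone minus troglitazone difference of -1.70, with an interval of -2.97 to -0.43. Troglitazone minus AG035029 was 1.88, with an interval of 0.61 to 3.15 (limma adjusted p = 0.326). In adipose tissue, rosiglitazone minus AG035029 was -0.86 for Gstz1, with an interval of -1.38 to -0.35. Rosiglitazone minus troglitazone was -0.56 for Gstk1, with an interval of -0.90 to -0.23. The intervals were narrow for Mgst1 in adipose tissue, where pioglitazone minus rosiglitazone was 0.02, from -0.25 to 0.28.

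Other genes of the conjugation pathway gave the setting. Of 12 genes that supply cofactors, 11 were tested in adipose tissue. In the ligand mean Ugp2, which makes UDP-glucose for glucuronidation, rose by 0.90 (limma adjusted p = 0.000154), and Papss2, which makes PAPS for sulfation, changed by -0.74 (adjusted p = 0.00534). Ugp2 was also higher in obese than in lean tissue, by 0.65 (limma adjusted p = 0.033). Of 13 other conjugating or hydrolysing enzymes, 8 were tested and 2 rose with the ligands, where 9.01% of all probe sets rose. They were Ephx2, the soluble epoxide hydrolase, at 1.35 ± 0.12 (limma adjusted p = 4.53e-07) and Sts, steroid sulfatase, at 0.39 ± 0.13 (adjusted p = 0.045). Of 10 transporters 2 were tested and 0 called.

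Of 11 genes of the Nrf2 list, 7 were tested in adipose tissue, and 3 were higher in obese than in lean rats, where 6.02% of all probe sets were called in either direction (list median 0.44, against -0.02 over all). Srxn1, which repairs oxidised peroxiredoxins, rose by 0.95, Akr1b8, an aldo-keto reductase, by 0.91 and Hmox1, which breaks down heme, by 0.73 (limma adjusted p = 0.00217, 0.00188 and 0.00867). In the ligand mean 0 of the 7 were called. Among 3 tested receptors and factors, Pparg fell by 1.07 in obese adipose tissue (adjusted p = 0.000273).

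In liver, 0 genes of these lists were called between obese and lean rats (limma; 12 cofactor genes, 8 other enzymes, 5 transporters, 6 Nrf2 genes and 8 receptors tested). Inmt, an N-methyltransferase, was called in the ligand mean, at 1.65 ± 0.37 (limma adjusted p = 0.0476). With troglitazone Inmt rose by 2.04 and Nr1i3, the receptor CAR, by 1.37 (limma adjusted p = 0.0439 and 0.0235). In muscle, Pparg rose by 2.01 in the ligand mean (limma adjusted p = 0.00278) on the arrays where adipocyte markers rose, and 0 other genes of the lists were called there. In obese against lean muscle the change of Pparg was -2.205 and did not pass (limma adjusted p = 0.0837). Summed adipocyte markers were 3437 to 3908 in lean and 3334 to 5971 in obese muscle. The part of fat cells in the Pparg signal was not tested.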

How the data were processed

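RNA was measured on 54 Rat Expression Set 230A arrays in 18 groups of 3. The authors deposited MAS5 signal intensities on a linear scale, per the submitters' processing notes, and every array's trimmed mean (2% off each end) was 500. The software version is not given in the sources used here. Of 15923 probe sets 57 were controls and left out. In platform annotation 12783 probe sets had 1 gene symbol, 312 several and 2771 none.

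Intensities were taken to log2(signal + 20), and the 9519 probe sets whose average exceeded the tissue's 40th percentile were tested with limma 3.58.1 in R 4.3.3, with 1 fit of 18 arrays per tissue, a trended prior and Benjamini-Hochberg adjustment over all tested probe sets. A joint fit of 54 arrays compared tissues, with the filter set on the average over all 54. Within a tissue, residuals of arrays with 1 replicate number correlated at 0.0184 (adipose tissue), 0.00322 (liver) and 0.0117 (muscle). The number was therefore not used to pair arrays. The joint fit treated all arrays as independent, and pairing of tissues from the same rats was not checked. The fits were also run on simulated signals with known changes and independent normal residuals. These held no mixed tissue and no shared rats, so they say nothing about such effects.

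Members and gene lists were chosen with earlier results of these data known. Array values are given for up to 6 called members per tissue and comparison (smallest adjusted p) and for the probe set of each family with the highest lean liver mean, and up to 4 called pathway genes are named per comparison. Other names were chosen after their values were seen. Symbols matched RefSeq for 39 of 40 probe sets. Alternatives covered the pseudocount, filter, normalization, variance prior, array weights, replicate block, arrays fitted, 1 probe set per gene and each array left out.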

Additional observations from a re-analysis of the deposited data

Results flagged for a closer look

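The mean response to the 4 ligands differed between tissues for 4 members by the F-test of the joint fit of 54 arrays (limma). Mgst1 had an adjusted p of 6.26e-05, with a log2 change of 0.32 (adipose tissue), -0.23 (liver) and 2.68 (muscle). Mgst2 had an adjusted p of 0.000282 (limma), with 0.83, -0.23 and 0.94 in the same order. Gstz1 had an adjusted p of 0.0206 (limma), with 0.98, -0.16 and 1.03. That call was lost with array weights and without liver obese replicate 3. Gstt3 had an adjusted p of 0.0432 (limma), with -0.80 in adipose tissue and 0.35 in liver. Its adipose minus muscle difference was -0.69 (limma adjusted p = 0.304). The F-test of Gstt3 was lost in 13 of 54 fits without 1 array and under 3 other alternatives. In muscle, Mgst1 moved with summed adipocyte markers, and their part was not tested.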

How the results depend on the processing

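The 4 sulfotransferase calls in obese liver held under all alternatives, with 4 members called in every fit without 1 array. Over 32 named changes, 987 of 1100 alternative values kept their direction and side of the threshold, 113 lost the threshold and 0 reversed. Many of these fits left out 1 array of a group outside the comparison, where the change itself could not move. The share kept is thus no measure of stability by itself. Over 25 counts of members, 808 of 887 alternative values stayed within 1.5 times the count, and 79 did not. The cause of these moves was not tested. In adipose tissue the obese against lean count of 0 became 1 with no filter, 1 with quantile normalization, 1 with the compared arrays alone, and 2 with the 60th percentile filter or array weights. The pioglitazone count of 5 became 2 with no filter and 10 with the compared arrays alone, and the rosiglitazone count of 2 became 1 with the compared arrays alone. The troglitazone count of 5 became 3 with no filter, quantile normalization or no variance trend, and the AG035029 count of 2 became 4 with the 60th percentile filter and 5 with array weights. Without the arrays that stood apart, an alternative chosen after seeing the data, the adipose counts were 1 for obese against lean, 10 for the ligand mean, 8 for pioglitazone, 7 for rosiglitazone, 9 for troglitazone and 7 for AG035029. In muscle the ligand mean count of 1 became 2 with the 60th percentile filter, quantile normalization or array weights and 0 with no variance trend. The muscle pioglitazone count of 1 became 0 with no filter or no trend, the rosiglitazone count of 0 became 1 with the compared arrays alone, and the troglitazone count of 2 became 1 with no trend or the compared arrays alone. The F-test between tissues called 7 in place of 4 with the 60th percentile filter, and 7 without the arrays that stood apart.

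With the replicate number as a block, the adipose obese against lean count was 2 and the muscle pioglitazone count was 0, and the block lost Gstk1 in the adipose ligand mean (limma adjusted p = 0.0568) and Gsto1 with troglitazone (adjusted p = 0.0543). Within a tissue the numbers share no pairing in the residuals, so the block has no basis there. Pairing across tissues was not checked.

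Without 1 array at a time, adipose counts ran from 3 to 9 for the ligand mean, 0 to 1 for obese against lean, 1 to 7 for pioglitazone, 1 to 6 for rosiglitazone, 3 to 6 for troglitazone and 2 to 5 for AG035029. Liver counts ran from 0 to 1 for the ligand mean, the difference among ligands, rosiglitazone and troglitazone, and stayed at 0 for pioglitazone and AG035029. Muscle counts ran from 0 to 2 for the ligand mean, 0 to 1 for pioglitazone and 1 to 2 for troglitazone. The F-test between tissues ran from 3 to 8. Lean counts ran from 21 to 23 for liver against adipose tissue, 22 to 23 for liver against muscle and 17 to 21 for adipose tissue against muscle. With 3 pools per group, a member's 95% interval for obese against lean reached a median of 0.454 (log2) to either side in liver, 0.495 in adipose tissue and 0.549 in muscle.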
